A study of Mus musculus with 4 samples.

Results

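Collagen chain genes were taken from the array annotation as every gene whose symbol has the form Col, a type number, the letter a and a chain number. This rule found 41 of the 28104 gene labels on the array, covered by 81 of its 41174 probes. They were divided into 11 chains of fibrillar collagens, 8 chains of basement membrane collagens (the 6 type IV chains with types XV and XVIII) and 22 other chains. The RNA came from brains of C57BL/6J fetuses and was read on 2-colour arrays carrying probes of 60 bases. In the food deprivation group (FD) dams went without food overnight on gestation day 17, and in the food restriction group (FR) dams were held, over gestation days 10 to 17, to 50% of what control dams ate. Control dams ate CE-2 chow freely. Caesarean section on gestation day 18 is stated for FR and implied for FD.

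Brain RNA of 5 fetuses was pooled for each group, and each treated pool was hybridised with control RNA on 2 arrays, with treated RNA in Cy5 on array 1 and in Cy3 on array 2. How many dams gave the 5 fetuses, and whether FD and FR were set against the same control RNA, is not stated. Each condition is therefore 1 pool (n = 1), the 2 arrays are a technical repeat with exchanged dyes, and no test between conditions was possible. Differences between pools and effects of treatment cannot be told apart. Values are log2(treated/control) on each array unless called levels. A level is the log2 signal of a pool in its own colour channel after normalisation, and is compared only between pools for the same probe. A gene is called higher or lower where it differed at least 1.5-fold (0.585 on the log2 scale) in the same direction on both arrays.

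Collagens are trimers of alpha chains with long Gly-X-Y repeats. Fibrillar collagens form the banded fibrils of bone, tendon, cartilage, skin and the meninges. Type I, a trimer of chains from Col1a1 and Col1a2, dominates in bone and in connective tissue around vessels and brain, type II (Col2a1) in cartilage and notochord, and types V and XI nucleate and thin the fibrils of types I and II. Type IV forms the sheet-like network of basement membranes, which in brain line blood vessels and the pial surface. The remaining types include beaded filaments (VI), fibril-associated chains (IX, XII, XIV, XXII) and transmembrane collagens (XIII, XVII, XXIII, XXV). Neurons and glia make few fibrillar collagens.

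Col1a1 and Col2a1 carry the main results, and the sequences of 4 of their probes are shown as printed on the array, on build mm9, 2 that differ along Col1a1 and 2 that overlap on Col2a1. The Col1a1 probes lie on the plus strand at chr11:94799277-94799336 (near the 5′ end) and chr11:94812052-94812111 (the middle probe), and a further probe downstream of both, at chr11:94813075-94813134, printed in 10 spots per array, stood for the gene. The Col2a1 probes lie on the minus strand at chr15:97806505-97806564 and chr15:97806485-97806544, and the second of these, also printed in 10 spots, stood for the gene. The array files do not say whether a probe lies in coding sequence. Capitals mark the 40 bases that both Col2a1 probes share, so these are not independent readings of the transcript.
Col1a1, 5′ probe: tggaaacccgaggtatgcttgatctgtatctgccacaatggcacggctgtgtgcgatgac
Col1a1, middle probe: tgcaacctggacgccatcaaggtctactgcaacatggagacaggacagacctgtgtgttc
Col2a1, upstream probe: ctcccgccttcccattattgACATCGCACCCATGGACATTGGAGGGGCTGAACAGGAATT
Col2a1, chosen probe: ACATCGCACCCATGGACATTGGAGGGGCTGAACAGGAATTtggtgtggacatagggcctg

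A gene was measured in a comparison when its probe was well above background in both colours on both arrays. Of the 41 genes, 36 were measured in FD, 37 in FR and 36 in both. Col4a3, Col6a6, Col10a1 and Col28a1 were not measured in either comparison. Col1a2 lacked a full FD value because the spot of its bright probe carried an outlier flag on FD array 2. Over all measured genes, the technical SD of the mean of 2 arrays, taken as a robust spread of the differences between the dye orientations, was 0.112 in FD and 0.116 in FR. It holds spot noise and the dye bias of single genes but not variation between pools. Neuronal markers were present in all pools, as the tissue label requires: 7 of 8 were measured in each comparison, with mean levels of 11.41 in FD and 11.46 in its control, and 11.40 in FR and 11.42 in its control.

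In FD, Col1a1 was the 1 collagen gene called, and it was lower. Among all 17950 genes measured in FD, 0.223% were called, 0.128% as lower and 0.0947% as higher. The chosen Col1a1 probe gave -0.90 and -0.75 on the 2 FD arrays, a mean of -0.83 or 1.77-fold lower. On array 1, 9 unflagged spots had an SD of 0.0853 around their mean, and on array 2, 5 unflagged spots had an SD of 0.0792. Every one of these spots was below -0.67. The FD pool thus read lower in both dye orientations, by more than the scatter of repeated spots. With median centring in place of loess its mean was -0.72 and it was no longer called.

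Col1a2, which encodes the partner chain of type I, read -0.82 on FD array 1, where its level was 12.40 in FD and 13.22 in the control. With the flagged spot of FD array 2 kept, an alternative chosen after the values were seen, that array read -0.63 and the mean was -0.73, or 1.66-fold lower. Both type I chains then passed the threshold in FD, and 2 collagen genes were called in place of 1.

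The type V and III chains stood closer to 0 in FD. Col5a1, the main chain of fibril-nucleating type V, read -0.18 and -0.37. Col5a2, its partner chain, read -0.33 and -0.13. Col5a3, a further type V chain, read 0.13 and 0.02. On the chosen probes both major type V chains were thus below their control on both arrays while Col5a3 was above it, and none reached 1.5-fold. A second, dimmer Col5a1 probe read -0.21 and 0.02. Col3a1, the type III chain of soft connective tissue, was represented by a dim probe with -0.05 and -0.06. Its brightest probe, which lost FR array 1 to an outlier flag, read -0.16 and -0.13 in FD, and 0.17 and 0.11 in FR with the flagged spot kept. Col27a1, a fibrillar chain of cartilage, read -0.35 and -0.06. Col2a1 itself read -0.09 and -0.22, and the type XI chains Col11a1 (0.08 and -0.19) and Col11a2 (0.13 and -0.26) changed sign with the dye. The median of the 10 fibrillar genes measured in FD was -0.11, against 0.00 over all genes. Of these, 6 were negative on both arrays, a state reached by 23.5% of all genes measured in FD.

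**Figure D1:**
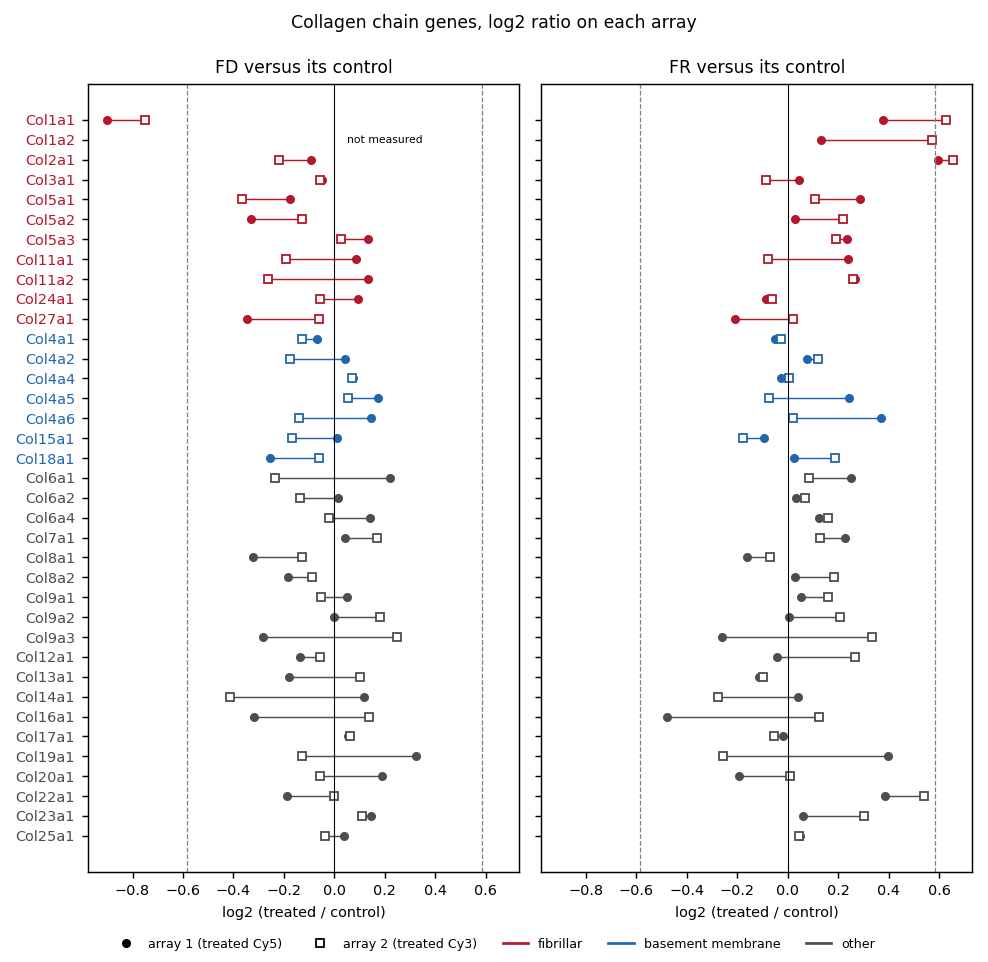
Log2(treated/control) of every collagen gene measured in at least 1 comparison, on array 1 (filled circles) and array 2 (open squares), for FD against its control (left) and FR against its control (right); dashed lines mark 1.5-fold. Col1a1 lies below the lower line in FD with values of -0.90 and -0.75, and Col2a1 lies above the upper line in FR with values of 0.60 and 0.65.

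Basement membrane chains were near their control in FD. The median of 7 measured genes was -0.07. Col18a1, the vessel and pial basement membrane chain whose C-terminal fragment is endostatin, read -0.25 and -0.06. Col4a1 and Col4a2, which form the most widespread type IV trimer and lie head to head in the genome, read -0.07 and -0.13, and 0.04 and -0.18. Col4a5 read 0.17 and 0.05, and Col15a1 0.01 and -0.17. None of the 7 reached 1.5-fold, and 2 were negative on both arrays and 2 positive on both, a state of 25.3% of all genes in FD.

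The 19 other chains measured in FD had a median of -0.01, and their means lay between -0.23 and 0.13. The chains of type VIII, a short-chain network collagen of vessels and cornea, read -0.32 and -0.13 for Col8a1, and -0.18 and -0.09 for Col8a2. Col14a1, a fibril-associated chain, read 0.12 and -0.41, a difference between dyes larger than its mean. Col23a1, a transmembrane chain, read 0.15 and 0.11. A second Col8a1 probe read 0.26 and -0.10, and with the mean of its probes Col8a1 stood at -0.07. None of the 19 genes was called.

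In FR, Col2a1 was the 1 collagen gene called, and it was higher. Among all 18547 genes measured in FR, 1.02% were called, 0.604% as higher and 0.415% as lower. The chosen Col2a1 probe gave 0.60 and 0.65, a mean of 0.63 or 1.54-fold higher. On each array 9 unflagged spots were averaged, with SDs of 0.079 and 0.0824. The overlapping upstream probe, on its own single spots, read 0.69 and 1.01. A further Col2a1 probe, 25011 bases upstream of it on the genome, was not measured: its red signal lay between 57.2 and 68.1 on the 4 arrays. Col2a1 passed narrowly. With outlier-flagged spots kept it read 0.58 and 0.64, the first of these just under the threshold. Array 2 of FR carried a bright patch, and with the patch's spots kept in the background fit the mean was 0.38. With median centring in place of loess it was 0.56, again without a call.

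The type I chains were positive in FR without being called. Col1a1 read 0.38 and 0.63, a mean of 0.50, with an SD over 8 and 7 spots of 0.117 and 0.121. Col1a2 read 0.13 and 0.57. Array 2 gave the higher value for both, and only there did Col1a1 pass 1.5-fold. The type XI chain Col11a2 read 0.27 and 0.26 on its brightest probe, and 0.00 and -0.18 on a dimmer one. Col11a1, its partner chain, read 0.24 and -0.08. In type V, Col5a1 read 0.29 and 0.11, Col5a2 0.03 and 0.22, and Col5a3 0.23 and 0.19. The second Col5a1 probe read -0.04 and -0.06. The median of 11 fibrillar genes was 0.20 in FR, against 0.00 over all genes, and 7 were positive on both arrays, a state of 28.2% of all genes measured in FR.

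The median of 7 basement membrane genes in FR was 0.09, but 0.004 without array 1, 0.0267 without array 2 and 0.0113 with the patch's spots kept. Col4a6 read 0.37 and 0.02, Col18a1 0.03 and 0.19, and Col4a2 0.08 and 0.12. Col4a1, the partner of Col4a2, read -0.05 and -0.02. Col15a1 read -0.10 and -0.18. These chains lay on either side of 0 and none reached 1.5-fold.

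Among 19 other chains in FR the median was 0.07 and none was called. Col22a1, a fibril-associated chain of muscle-tendon and cartilage-synovium junctions, came nearest, with 0.39 and 0.54. Col23a1 read 0.06 and 0.30, and Col7a1, the anchoring fibril chain of skin, 0.23 and 0.13. Col16a1 read -0.48 and 0.12, so its sign followed the dye. The 3 measured type VI chains, which form beaded filaments around cells, had means of 0.17 (Col6a1), 0.05 (Col6a2) and 0.14 (Col6a4) on their chosen probes. Second probes of Col6a2 (-0.07 and -0.02) and Col6a4 (-0.03 and 0.00) did not share the positive sign.

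The ratios of FD and FR were compared by subtracting arrays of equal dye orientation. Of 16747 genes measured in both comparisons, 0.34% differed at least 1.5-fold in both differences, 0.269% with FD lower and 0.0717% with FD higher. Of the 36 collagen genes, 2 did, and FD was the lower one for both. The difference was -1.28 and -1.38 for Col1a1, and -0.69 and -0.87 for Col2a1. Just short of the threshold were Col22a1 with -0.57 and -0.54 and Col5a1 with -0.46 and -0.48. Col5a2 followed with -0.36 and -0.34. With outlier-flagged spots kept, Col1a2 differed by -0.96 and -1.21 and also passed. With median centring, or with the patch's spots kept, Col1a1 alone passed. The median difference was -0.23 over 10 fibrillar genes, -0.06 over 7 basement membrane genes, -0.05 over 19 others and 0.00 over all genes.

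**Figure D2:**
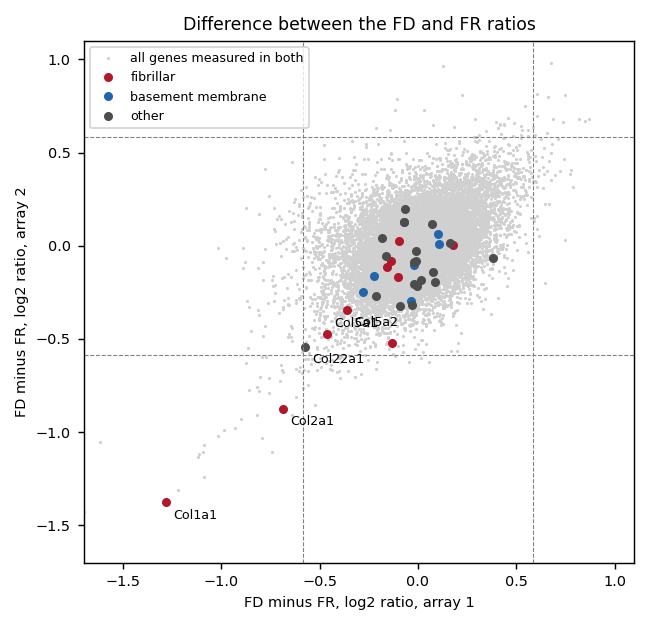
FD minus FR in log2(treated/control), array 1 on the horizontal and array 2 on the vertical axis, for the collagen genes by class (coloured) and all genes measured in both comparisons (grey; 9 of 16747 genes lie outside the axes). Dashed lines mark 1.5-fold; Col1a1 and Col2a1 lie in the lower left corner beyond both lines, and Col22a1 lies just inside it.

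The channel levels show which pool stood apart. For Col2a1 the level was 9.18 in FD and 9.33 in its control, and 10.01 in FR and 9.38 in its control. The FR pool alone was high, and the other 3 pools lay between 9.18 and 9.38. For Col22a1 the level was 8.86 in FD and 8.96 in its control, and 9.53 in FR and 9.07 in its control, the same order. For Col5a1 it was 8.97 in FD and 9.24 in its control, and 9.44 in FR and 9.24 in its control, so both controls met and the treated pools lay on either side of them.

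Col1a1 behaved otherwise. Its level was 11.44 in FD and 12.26 in its control, and 12.27 in FR and 11.77 in its control. The control RNA of the FD arrays was as high as the FR pool, and the control RNA of the FR arrays lay between these and the FD pool. The controls differed by 0.49, a distance reached by 1.13% of 16747 genes, whose control levels differed with an SD of 0.163. The treated pools differed by -0.83 (FD minus FR) for both Col1a1 and Col2a1, and 0.113% and 0.125% of all genes were as far apart. Without the control channels the Col1a1 difference of -1.33 in log2 ratio is thus -0.83 in level. Levels set across arrays rest on a quantile step between arrays and the pools were not hybridised together.

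Over the 36 genes measured in both, the FR pool had the highest of the 4 levels for 22, or 61.1%, against 33.2% of all genes. The FD pool had the lowest for 19, or 52.8%, against 20.4% of all genes. Among the 10 fibrillar genes these counts were 7 and 8. Col24a1, a fibrillar chain of bone and cornea, went the other way, with 6.50 in FD and 6.49 in its control, and 6.29 in FR and 6.36 in its control. The median level difference of FD minus FR was -0.31 over fibrillar genes (controls 0.00), -0.14 over basement membrane genes (controls -0.12) and -0.11 over other chains (controls -0.03). For basement membrane chains the controls thus differed nearly as much as the treated pools.

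**Figure D3:**
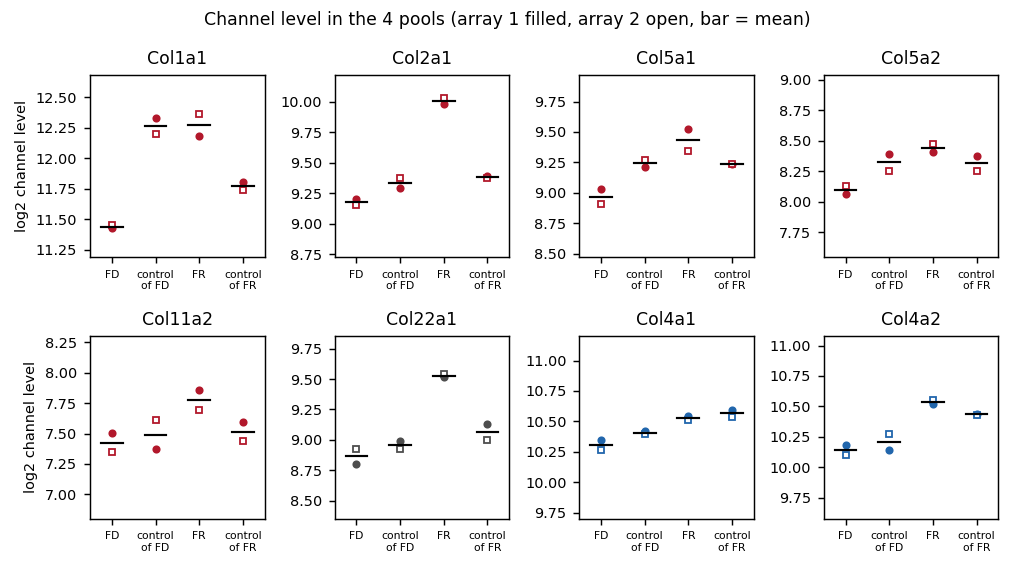
Log2 channel level of 8 collagen genes in FD, control of FD, FR and control of FR, on array 1 (filled circles), array 2 (open squares) and as their mean (bars); each panel spans the same range. Col2a1 and Col22a1 are high in FR (10.01 and 9.53), while Col1a1 is high in FR and in the control of FD (12.27 and 12.26).

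The probes of Col1a1 differed by position and brightness. The probe that stood for the gene, 13798 bases downstream of the 5′ probe on the genome, gave means of -0.83 in FD and 0.50 in FR. The middle probe shown above read -0.64 and -0.57 in FD, and 0.38 and 0.35 in FR. The 5′ probe read -0.06 and -0.03 in FD, and 0.02 and -0.03 in FR. That probe was dim, with green signals of 57.4 to 60.8 over a local background of 44.0 to 50.0. The offset of 50 added to every intensity draws ratios of dim spots towards 0. Position and brightness cannot be told apart for this probe. The bright probes agree in sign in both comparisons, and with the mean of all measured probes Col1a1 read -0.49 in FD and was no longer called.

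**Figure D4:**
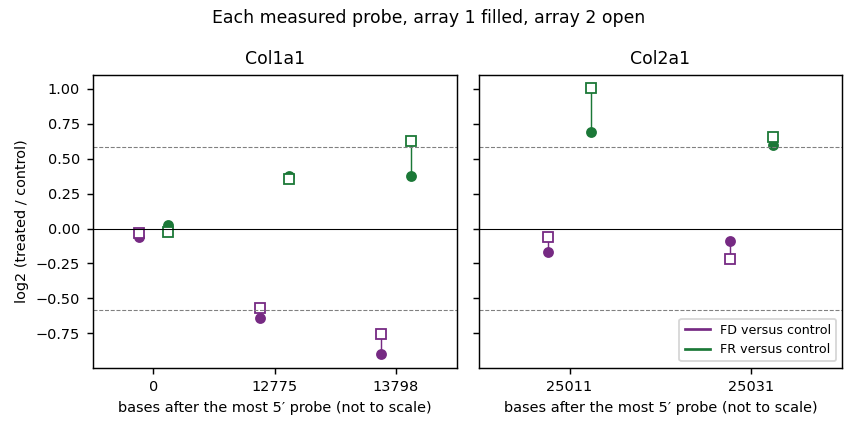
Log2(treated/control) of each measured probe of Col1a1 (left) and Col2a1 (right) in FD and FR, on array 1 (filled) and array 2 (open), ordered by distance in bases from the most 5′ probe of the gene; dashed lines mark 1.5-fold. Both downstream Col1a1 probes lie below 0 in FD and above 0 in FR, the 5′ probe lies near 0, and both Col2a1 probes lie above the upper line in FR.

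Genes that modify, fold, cut and crosslink collagen were followed as a list of 33, of which 28 were measured in each comparison. In FD none of the 28 was called, and in FR 1 was called as higher and none as lower. Over all measured genes, 0.223% were called in FD, and 0.604% were called as higher in FR. The called gene was Adamts2, the protease that removes the N-propeptide of fibrillar procollagens, with 0.63 and 0.64 in FR and 0.15 and 0.43 in FD. P4ha1, the catalytic subunit of prolyl 4-hydroxylase, read -0.52 and -0.59 in FR and -0.29 and -0.40 in FD. Serpinh1, the collagen chaperone HSP47, read -0.77 and -0.26 in FR and -0.90 and -0.28 in FD, so its size depended on the dye in both. The list median was -0.01 in FD and 0.03 in FR.

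Of 43 genes for laminins and other matrix partners, collagen receptors and matrix breakdown, 35 were measured in FD and 34 in FR, and none was called. Over all measured genes, 0.223% were called in FD and 1.02% in FR, so a list of this size can hold none at those shares. The farthest in FD were the gelatinase Mmp9 (-0.40 and -0.52) and the fibril proteoglycan lumican, Lum (-0.30 and -0.39). In FR they were fibulin 1, Fbln1 (-0.59 and -0.39), Mmp9 (-0.43 and -0.44) and the collagen receptor chain Itga11 (0.55 and 0.21). The list medians were -0.06 in FD and 0.04 in FR.

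Markers of collagen-rich tissues outside the brain were followed beside these values. All 7 measured skeletal muscle markers were called lower in FD than in its control, against 0.128% of all genes. Their median was -2.13, with a mean level of 7.99 in FD and 10.08 in its control. In FR 0 of 8 were called, with a median of 0.02 and a mean level of 8.12 in FR and 8.11 in its control. The control of FD thus stood above the other pools, though the means cover 7 genes in FD and 8 in FR. Of 7 measured bone markers, 1 was lower in FD than in its control: Spp1, osteopontin, with a mean of -0.97 and nearly equal values on both arrays. Its level was 10.24 in FD and 11.20 in its control, and 9.95 in FR and 9.79 in its control. Spp1 was thus highest in the control of FD, and FD lay above both pools of the FR arrays. The osteoblast genes Bglap and Ibsp read -0.45 and -0.54, and -0.47 and -0.30 in FD. Sp7 (0.09 and 0.02) and Phex (0.15 and 0.04) were positive on both FD arrays. Thus 3 bone markers were negative and 2 positive on both, states of 23.5% and 25.3% of all genes in FD. The list median was -0.06. In FR no bone marker was called and the list median was 0.10. Of 7 bone markers, 6 were positive on both FR arrays, a state of 28.2% of all genes measured in FR. The farthest was Ibsp with 0.52 and 0.69, followed by Phex with 0.40 and 0.40. The mean bone level was 7.42 in FD and 7.68 in its control, and 7.51 in FR and 7.29 in its control. Of 6 measured cartilage markers none was called. The list medians were -0.05 in FD and 0.06 in FR. Comp read -0.21 and -0.23 in FD and 0.31 and 0.43 in FR. Acan, aggrecan, read -0.10 and 0.02 in FD and 0.21 and 0.22 in FR. The remaining cartilage markers had smaller FR means: 0.0043 for Sox9, 0.0063 for Cnmd, 0.0525 for Hapln1 and 0.0716 for Chad. Col10a1, the chain of growth plate cartilage, and the bone marker Dmp1 were not measured. The part of these tissues in the Col1a1 and Col2a1 values was not tested. The design text states that brains were dissected free of other tissue. In pooled tissue RNA, fewer cells of a type and less RNA per cell cannot be told apart.

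Further marker lists covered cells that make collagen within the brain and its coverings, and also skin, choroid plexus and neurons. Medians in FD and FR were 0.06 and -0.07 for 7 and 6 meningeal fibroblast genes, -0.05 and -0.20 for 8 and 7 pericyte and smooth muscle genes, and -0.03 and -0.01 for 7 endothelial genes. In FR, 4 of 6 meningeal fibroblast genes were negative on both arrays and 0 positive. For 7 pericyte and smooth muscle genes these counts were 5 and 2, and for 7 endothelial genes 2 and 0. Over all genes in FR, 27.5% were negative and 28.2% positive on both. In FD the counts were 3 and 2, 1 and 0, and 3 and 1, against 23.5% and 25.3%. Medians of the remaining lists were -0.01 and 0.02 for 4 and 5 skin genes, -0.02 and 0.05 for 4 choroid plexus genes, and -0.02 and -0.04 for 7 neuronal genes. None of these genes was called, against 0.223% of all genes in FD and 1.02% in FR. Lists this short can hold none at those shares.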

How the data were processed

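The members, gene lists and rules were chosen with earlier results of these data known. Per the file headers, the intensity values used are the mean of each spot and the median of its surround, from Agilent Feature Extraction 9.5.3.1. The files also hold flags for background and outliers, and a log10 ratio of red over green. The authors' deposited value table was a log2 ratio of treated over control in all 4 columns when set against the scanner ratio on spots above background. Its columns have medians of -0.03, 0.03, -0.03 and 0.01, and how dim spots were treated is unknown.

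Spots whose local background was over 2 times that array's median (3 on FD array 1, 44 on FR array 2, 0 on the other arrays) were left out, a choice made after the values were seen. Intensities were corrected with normexp (offset 50) and loess within arrays in limma 3.58.1 (R 4.3.3), tested on simulated data. Control and outlier-flagged spots were removed, spots of a probe averaged, and signs turned to treated over control. Levels were taken after Aquantile. The brightest probe measured in both comparisons stood for a gene. Named members are those called, the 4 farthest from 0 per class and comparison, and their partner chains. Of other lists the 3 farthest are named, except 1 gene that is not reported here. Names followed the files for collagens and GRCm38.p6 otherwise. Emid2 and Gm7455, older names of Col26a1 and Col6a5, fall outside the rule.

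Alternatives were the scanner and deposited ratios, median centring, offset 0, kept spots, other filters and probe choices, and 1 array left out.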

Additional observations from a re-analysis of the deposited data

Results flagged for a closer look

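For 8 of the 36 collagen genes measured in both comparisons (22.2%), the FD and FR ratios had opposite signs on both arrays of each comparison. The share was 6.44% of all 16747 genes measured in both. In 7 of them, 19.4% of the 36, FD was negative and FR positive, against 3.03% of all genes. Whether the comparisons share control RNA is not stated. The mean difference, FD minus FR in log2 ratio, was -1.33 for Col1a1, -0.78 for Col2a1, -0.56 for Col22a1, -0.47 for Col5a1, -0.35 for Col5a2, -0.26 for Col18a1 and -0.24 for Col8a2. Col17a1, a transmembrane chain of skin, had the opposite order with 0.0935. The difference was not tested, since each condition was 1 pool.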

How the results depend on the processing

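No paired analysis was possible because the replicate numbers shared by FD and FR mark only the dye orientation of arrays that hold the same pools. The 1 collagen gene called in FD became 0 with median centring in place of loess and with the mean of all probes, and 2 with outlier-flagged spots kept (chosen after the data were seen); with 1 array left out it ranged from 1 to 1. The 1 called in FR became 0 with median centring, with high-background spots kept and with outlier-flagged spots kept, and ranged from 1 to 2 with 1 array left out. The 2 that differed between FD and FR became 1 with median centring and with high-background spots kept, 3 with offset 0 (adding Col22a1) or outlier-flagged spots kept (adding Col1a2), and ranged from 2 to 2. The 1 biosynthesis gene became 0 with median centring, high-background spots kept or the mean of all probes, and 2 with the scanner ratio, the deposited table or offset 0; it ranged from 1 to 2.

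The fibrillar median in FD was -0.20 with the scanner ratio and the deposited table, and -0.16 to -0.07 with 1 array left out. In FR it was 0.15 with median centring, 0.23 with the scanner ratio and the deposited table, 0.12 with high-background spots kept and 0.0878 with the mean of all probes, and 0.19 to 0.23 with 1 array left out. The basement membrane median in FR was 0.0319 with median centring, 0.10 with the scanner ratio and the deposited table, 0.105 with offset 0, 0.0113 with high-background spots kept, and 0.004 to 0.0267 with 1 array left out; in FD it was -0.13 to 0.04. The median of other chains in FR was 0.15 with the scanner ratio and the deposited table, and 0.03 to 0.12 with 1 array left out; in FD it was -0.04 to 0.04. Over all genes, calls in FD were 40, against 20 with median centring and 143 with the scanner ratio; in FR 189, against 13 with high-background spots kept and 614; and between FD and FR 57, against 28 and 260. Ratios of dim probes are compressed towards 0.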

Other observations

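Further probes of the collagen genes gave a second reading. In FD, 20 of 22 further measured probes, on 19 genes, had the sign of the probe that stood for the gene. In FR, 10 of 22, on 18 genes, did. The exceptions in FR included second probes of Col6a2 and Col6a4, a second Col5a1 probe with -0.04 and -0.06 and a second Col11a2 probe with 0.00 and -0.18, while further probes of Col1a1, Col2a1, Col4a2 and Col18a1 kept their sign apart from the dim 5′ probe of Col1a1.

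Several collagen genes are neighbours, with 9 pairs whose nearest probes lie within 500 kb of each other on build mm9. Col3a1 and Col5a2, on chromosome 1 with opposite strands and probes 28.0 kb apart, had means of -0.05 and -0.23 in FD and -0.02 and 0.12 in FR; for Col3a1 these come from a dim probe, and its bright probe had -0.14 in FD and, with a flagged spot kept, 0.14 in FR. Col6a1, Col6a2 and Col18a1 share a strand of chromosome 10 and had means of -0.01, -0.06 and -0.16 in FD and 0.17, 0.05 and 0.11 in FR on their chosen probes; a second Col6a2 probe read -0.07 and -0.02 in FR. Col9a1 and Col19a1, with probes 6.91 kb apart, had -0.00 and 0.10 in FD and 0.11 and 0.07 in FR.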
